A study of Mus musculus with 12 samples.

Results

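The insulin receptor, its substrates, the lipid kinase PI3K and the kinase AKT form the core relay of insulin signalling, and 10 genes of this relay were followed here: Insr, Igf1r, Irs1, Irs2, Grb10, Pik3ca, Pik3r1, Pik3r3, Akt1 and Akt2. They were picked by name for their role in the pathway, with earlier results of these data known. All 10 of 10 were found among the 15113 genes of the count table. The cells were C2C12 myotubes, muscle fibres in culture that form when the mouse C2C12 myoblast line, a single immortalised line, is kept in low serum. They had been differentiated for 5 days, then received either 20 µM BAM15, a small molecule that uncouples mitochondrial respiration from ATP synthesis, or its DMSO vehicle for 16 h, and 6 libraries were made per condition. No genetic change separated the groups, and the labels do not say whether the 6 libraries of a condition came from separate cultures, so the p-values measure the spread between these libraries, which may be technical.

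When insulin binds its receptor, the receptor phosphorylates the IRS proteins, and these recruit PI3K through the regulatory subunits that hold its catalytic subunit. PI3K then makes a phosphoinositide lipid in the plasma membrane, to which AKT is drawn and where it is switched on. In muscle, AKT releases the glucose transporter GLUT4 to the cell surface, drives glycogen and protein synthesis, and keeps the FoxO transcription factors out of the nucleus. The signal itself runs through phosphorylation, which RNA counts do not measure, so the values below are transcript levels only.

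The libraries were made with QuantSeq, which primes from the poly(A) tail and so samples the 3′-terminal stretch of each mRNA. Total counts per library ranged from 13983725 to 18866728. All 10 members had more than 3 counts in each of the 12 libraries and passed the filter on low counts, as did 12730 genes in all. Counts are given after TMM scaling, as normalized counts (the count divided by the library's effective size and multiplied by the mean effective size of the 12 libraries). A gene was called higher or lower after BAM15 where edgeR's quasi-likelihood test gave a Benjamini-Hochberg adjusted p below 0.01 over the 12730 genes, and the 3 thresholds of the study's methods were that adjusted p, a mean normalized count above 50 and a change of more than 2-fold.

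The first principal component held 65.7% of the variance. The second (17.0%) set BAM15 libraries 1 to 3 (scores of -37.62 to -20.47) apart from BAM15 libraries 4 to 6 (7.978 to 41.67). The vehicle libraries (-10.12 to 10.45) stood clear of BAM15 libraries 1 to 3 and overlapped the range of BAM15 libraries 4 to 6. The labels name no batch, and values within numbers 1 to 3 and within numbers 4 to 6 are therefore given beside each result that differs between them. These sets were drawn from the same counts, so p-values within a set or with a block for the sets are descriptions. All 12 myotube markers were present, with a summed normalized count of 371000 to 417700 in vehicle and 345900 to 472300 in BAM15 libraries. Of these, 2 (Acta1 and Myog) were called higher and 2 (Ckm and Mb) lower. These shares of 16.7% each were near those of all genes tested (22% higher and 20.3% lower). Of the 4 adipocyte and 4 hepatocyte markers, 0 were listed. Among 4 macrophage markers 2 were listed: Csf1r, which did not pass the filter, and Cd68, a lysosomal protein, which rose from 13.7 ± 3.84 to 64.2 ± 8.53 (SD, n = 6 each). All 8 markers of dividing cells fell (100%, against 20.3% of all genes tested), with a sum of 9008 to 9507 in vehicle and 2556 to 2919 in BAM15 libraries. Of 6 markers of undifferentiated myoblasts 4 fell (Pax7, Myod1, Sdc4 and Heyl, 66.7% against 20.3% of all genes tested). A further 1 rose (Myf5, 16.7% against 22%), although its groups overlapped. In bulk RNA, fewer cells of a type and less RNA per cell cannot be told apart, and the part of the myoblast and dividing-cell markers in the results below was not tested.

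After BAM15, Irs2 and Insr rose, Pik3r3 and Irs1 fell, and the other 6 members were not called in either direction by edgeR. With DESeq2, Pik3r1 and Akt2 were also called lower. The member with the largest increase was Irs2, an insulin receptor substrate, at 128% above vehicle, and the member with the largest decrease was Pik3r3, a PI3K regulatory subunit, which fell by 60.0%. Among all genes tested 22% were called higher and 20.3% lower, so that the counts of 2 of 10 members higher and 2 of 10 lower were close to the background. Both Irs2 and Pik3r3 also passed all 3 thresholds, as 7.28% of tested genes did. The groups did not overlap for 4 members, those same 4 genes (4 of 10, against 34.2% of all genes tested). The median log2 fold change of the 10 members was -0.29, and that of all genes tested was 0.02.

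**Figure D1:**
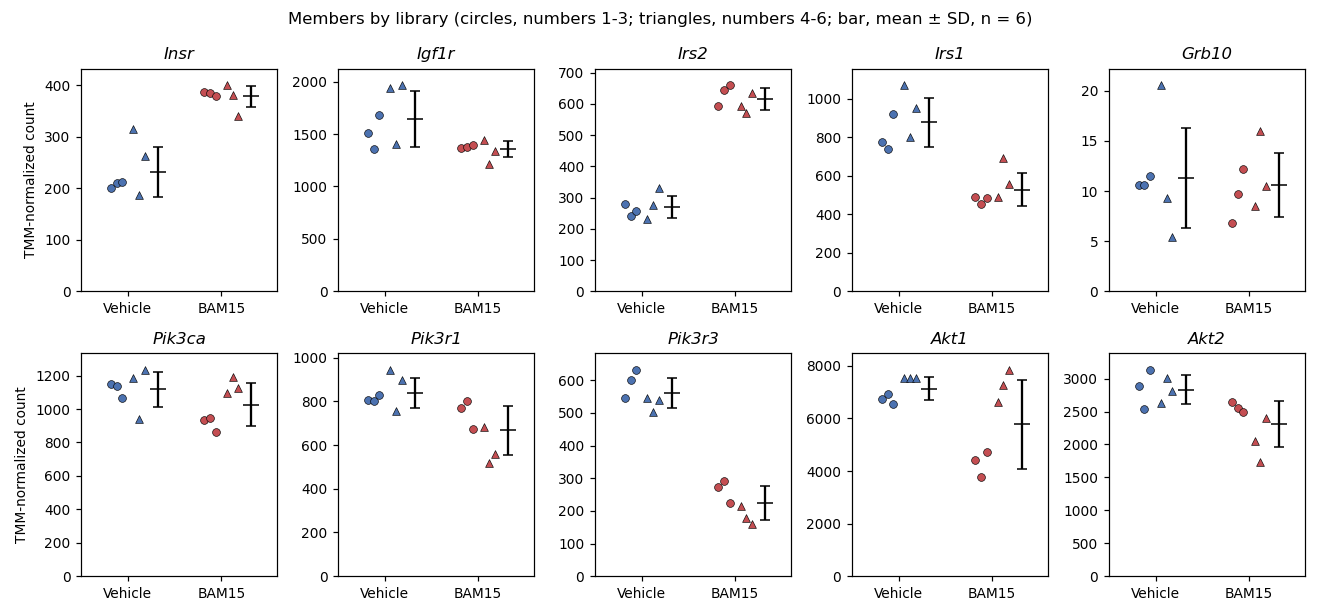
TMM-normalized count of each member (vertical axes, starting at 0) in the 6 vehicle and 6 BAM15 libraries, circles for library numbers 1 to 3 and triangles for 4 to 6, with the mean ± SD (n = 6) beside the points. The groups of Insr, Irs2, Irs1 and Pik3r3 are clear of each other, while the BAM15 libraries of Akt1 split into a lower set of 3775 to 4732 and a higher set of 6616 to 7845.

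The receptors were measured first. Insr encodes the insulin receptor (ENSMUSG00000005534, GRCm38 chr8:3122061-3279617, minus strand). Its normalized count was 186.6 at the lowest, 211.9 at the median and 316.1 at the highest in vehicle, and 339.7, 383.4 and 400.5 after BAM15. Every BAM15 library lay above every vehicle library, and vehicle library 4 was the nearest to them. The mean went from 231.5 ± 48.9 to 378.9 ± 20.6 (SD, n = 6 each), a log2 fold change of 0.71 ± 0.114 (SE; 95% interval 0.47 to 0.96, edgeR adjusted p = 9.08e-05). Within library numbers 1 to 3 the log2 fold change was 0.88, and within numbers 4 to 6 it was 0.54, where edgeR's adjusted p of 0.0165 did not pass the threshold.

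Igf1r encodes the receptor for insulin-like growth factor 1, a close relative of the insulin receptor that uses the same substrates (ENSMUSG00000005533, chr7:67952827-68233668, plus strand). It stood at 1355, 1596 and 1968 (lowest, median, highest) in vehicle and at 1218, 1372 and 1445 after BAM15. All 6 BAM15 libraries were below the vehicle mean, but 4 of them were within the range of the vehicle libraries. The log2 fold change was -0.28 ± 0.0922 (SE; 95% interval -0.47 to -0.08) and was not called (edgeR adjusted p = 0.0198). It was -0.14 within numbers 1 to 3 (edgeR adjusted p = 0.111) and -0.42 within numbers 4 to 6 (edgeR adjusted p = 0.0142), where vehicle libraries ranged from 1406 to 1968. Without vehicle library 2, the lowest of its group, edgeR's adjusted p was 0.00594. Igf1r was also called lower by edgeR with scaling by library size only (adjusted p = 0.00518). The same held for limma on the deposited normalized values (limma adjusted p = 0.00848).

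Because Insr rose while the Igf1r mean lay lower, the Insr count relative to the Igf1r count of the same library was 0.141 ± 0.0148 in vehicle (SD, n = 6; range 0.1265 to 0.1631) and 0.280 ± 0.0193 after BAM15 (0.2539 to 0.313). These ratios compare libraries with each other and say nothing about which receptor was the more abundant. The BAM15 libraries 1 to 3 (0.2715 to 0.2831) fell inside the range of numbers 4 to 6 (0.2539 to 0.313), so this ratio did not share the split of the second component.

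The insulin receptor substrates Irs1 and Irs2, the docking proteins that carry the signal from the receptor to PI3K, moved in opposite directions. Irs2 (ENSMUSG00000038894, chr8:10984681-11008458, minus strand) had 230.6, 267.2 and 331.7 normalized counts (lowest, median, highest) in vehicle and 571.7, 614.0 and 660.0 after BAM15. The groups were far apart, and the lowest BAM15 library was above the highest vehicle library by more than the whole range of either group. The mean rose from 269.2 ± 36.2 to 615.9 ± 34.5 (SD, n = 6 each), a log2 fold change of 1.19 ± 0.0853 (SE; 95% interval 1.01 to 1.37, edgeR adjusted p = 1.75e-08). By p-value Irs2 ranked 502 among the 12730 genes, and its log2 fold change was 1.28 within numbers 1 to 3 and 1.09 within numbers 4 to 6.

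Irs1 (ENSMUSG00000055980, chr1:82233101-82291416, minus strand) had 741.4, 863.1 and 1072 normalized counts in vehicle and 454.8, 489.7 and 694.7 after BAM15. All 6 BAM15 libraries were below all vehicle libraries, with BAM15 library 5 the closest to them. The mean went from 877.9 ± 127 to 528.6 ± 87.8 (SD, n = 6 each) and so fell by 39.8%, a log2 fold change of -0.73 ± 0.113 (SE; 95% interval -0.97 to -0.49, edgeR adjusted p = 6.15e-05). Within numbers 1 to 3 the log2 fold change was -0.77 and within numbers 4 to 6 it was -0.71. In the GENCODE M21 annotation, 389 of the final 400 bases of Irs1, the part that QuantSeq samples, are also exonic sequence of the antisense gene Gm9747. Gm9747 was not listed in the count table, and the strand used in counting is not given in the sources used here, so reads of the antisense gene cannot be told apart from those of Irs1. For the other 9 members no such overlap, and no stretch of 50 bases shared with another gene, was found in the 400 bases examined, which end 1 annotated coding transcript per gene. Other annotated 3′ ends, of which Akt2 has 11 in all, Grb10 5, Pik3r1 and Akt1 4 each, Pik3r3 3, and Insr and Pik3ca 2 each, were not examined.

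Within each library the Irs2 count relative to the Irs1 count was 0.312 ± 0.0552 in vehicle (SD, n = 6; range 0.2152 to 0.3598) and 1.19 ± 0.207 after BAM15 (0.823 to 1.413). The lowest BAM15 value, in library 5, was still above the highest vehicle value. This ratio was formed from 2 members that had already been called in opposite directions, so its separation is a description of both changes and no further test.

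The sequences just upstream of both substrate genes are shown because Irs1 and Irs2 are genes of one family that changed in opposite directions. The RefSeq promoter table (GRCm38.p6) held entries for 9 of the 10 members, with no entry for Insr. Each run below is the 250 bases before the RefSeq start, 5′ to 3′ on the strand of the gene. The window is chr1:82291440-82291689 (minus strand) for Irs1 and chr8:11008930-11009179 (minus strand) for Irs2. Both windows lie upstream of the GENCODE gene spans given above without adjoining them, so distances below count from the RefSeq start. Capitals mark the letters CAAAACA, the core of the insulin response sequence through which insulin represses several genes, read here on the reverse strand as TGTTTTG.
Irs1: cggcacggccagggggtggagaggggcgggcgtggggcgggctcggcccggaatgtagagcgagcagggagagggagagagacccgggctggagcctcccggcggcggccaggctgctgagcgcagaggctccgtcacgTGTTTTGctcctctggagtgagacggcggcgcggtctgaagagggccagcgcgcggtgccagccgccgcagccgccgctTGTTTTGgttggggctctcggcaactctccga
Irs2: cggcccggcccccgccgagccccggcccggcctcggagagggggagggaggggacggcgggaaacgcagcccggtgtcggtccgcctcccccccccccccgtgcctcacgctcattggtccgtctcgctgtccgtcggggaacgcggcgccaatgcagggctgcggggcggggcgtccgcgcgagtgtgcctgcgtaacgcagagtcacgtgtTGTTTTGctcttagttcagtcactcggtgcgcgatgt
The motif was present in both: in Irs1 from base 111 to base 105 and again from base 32 to base 26 before the start, and in Irs2 once, from base 37 to base 31. Of 32851 promoter windows of this length in the table, 5.56% held it on either strand. Both promoters were rich in G and C (72.4% for Irs1 and 72.8% for Irs2, against a median of 52.4% over all windows) and in CpG dinucleotides (28 and 34, against a median of 6). GTAAACA, the letters searched here as a FoxO motif, occurred in a promoter window of Akt1 (3.17% of all windows). The ATF4 and C/EBP motif TGATGNAA occurred in one of Akt2 (3.45%). None of the 3 motifs, which were searched on both strands and do not overlap each other in these windows, was found in the windows of Pik3r3. A match in these letters is a description of sequence and does not show that a factor binds there.

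Grb10 encodes an adaptor that binds the active insulin receptor and restrains it (ENSMUSG00000020176, chr11:11930508-12038683, minus strand). It had between 6 and 19 raw counts per library. The normalized count was 5.423, 10.60 and 20.57 (lowest, median, highest) in vehicle and 6.796, 10.11 and 15.96 after BAM15, with the groups fully intermixed. The log2 fold change was -0.07 ± 0.307 (SE, edgeR adjusted p = 0.871), and its 95% interval of -0.72 to 0.59 leaves room at this depth for a change in either direction.

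Pik3r3 encodes the gamma regulatory subunit of PI3K, one of the subunits that dock the kinase on phosphorylated IRS proteins (ENSMUSG00000028698, chr4:116221618-116303056, plus strand). Its normalized count was 502.1, 544.8 and 631.7 (lowest, median, highest) in vehicle and 159.9, 220.2 and 292.8 after BAM15. The highest BAM15 library was far below the lowest vehicle library. The mean fell from 560.5 ± 46.8 to 223.9 ± 51.9 (SD, n = 6 each), a log2 fold change of -1.32 ± 0.129 (SE; 95% interval -1.60 to -1.05, edgeR adjusted p = 5.61e-07). By the size of its change Pik3r3 ranked 889 among the 12730 genes. The decrease was present within numbers 1 to 3 (log2 fold change of -1.17, BAM15 libraries at 224.7 to 292.8) and within numbers 4 to 6 (-1.53, at 159.9 to 215.7).

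The other regulatory subunit gene among the members, Pik3r1, encodes the alpha regulatory subunits, whose isoforms are counted together at the level of the gene (ENSMUSG00000041417, chr13:101680563-101768217, minus strand). It had 755.7, 817.5 and 944.0 normalized counts in vehicle and 517.3, 679.4 and 803.8 after BAM15. All 6 BAM15 libraries were below the vehicle mean and 4 of them below every vehicle library. The log2 fold change of -0.33 ± 0.102 (SE; 95% interval -0.55 to -0.11) was not called (edgeR adjusted p = 0.013). DESeq2 called the gene lower (DESeq2 adjusted p = 0.00442). So did edgeR with median-ratio size factors (adjusted p = 0.0097) or upper-quartile scaling (adjusted p = 0.00799). The log2 fold change was -0.12 within numbers 1 to 3 (edgeR adjusted p = 0.185) and -0.57 within numbers 4 to 6 (edgeR adjusted p = 0.00146). Further, edgeR called the gene lower without BAM15 library 1 (adjusted p = 0.00803), without BAM15 library 2 (adjusted p = 0.00367) or with a block for the 2 sets of numbers (adjusted p = 0.0056).

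Pik3ca encodes the alpha catalytic subunit of PI3K, the form that insulin signalling mainly uses (ENSMUSG00000027665, chr3:32397671-32468486, plus strand). It stood at 938.2, 1145 and 1234 (lowest, median, highest) in vehicle and at 864.0, 1021 and 1192 after BAM15. The groups overlapped, and the log2 fold change of -0.13 ± 0.0876 (SE; 95% interval -0.31 to 0.06) was not called (edgeR adjusted p = 0.243). The BAM15 libraries split by number: numbers 1 to 3 were at 864.0 to 944.2, below all 3 vehicle libraries of those numbers (log2 fold change of -0.30, edgeR adjusted p = 0.00105), and numbers 4 to 6 were at 1098 to 1192, within the vehicle range (0.02, edgeR adjusted p = 0.917).

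**Figure D2:**
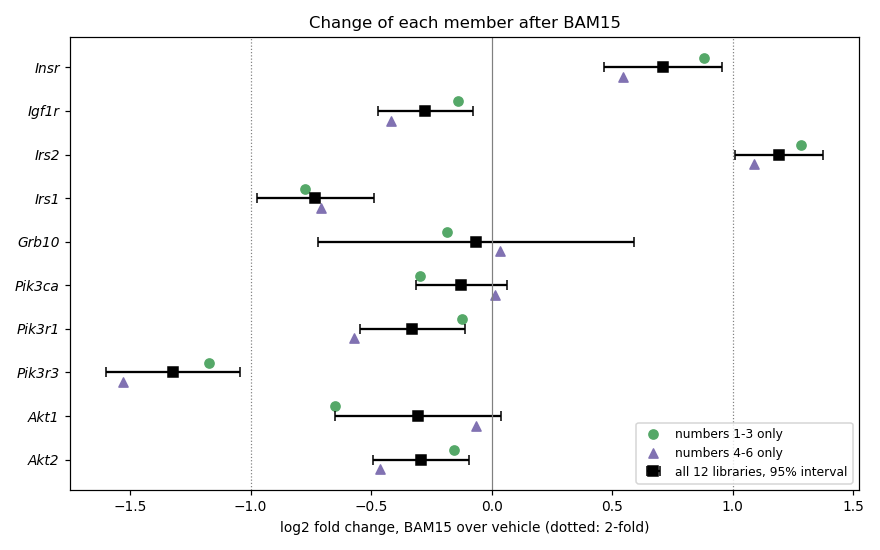
Log2 fold change of each member, BAM15 over vehicle (horizontal axis): squares with 95% intervals for all 12 libraries, circles for library numbers 1 to 3 alone and triangles for 4 to 6 alone, with dotted lines at 2-fold. The intervals of Irs2 (1.01 to 1.37) and Pik3r3 (-1.60 to -1.05) lie beyond 2-fold, and the circle and triangle of Akt1 (-0.65 and -0.07) are far apart.

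AKT is the kinase in which the relay ends, and Akt1 and Akt2 encode its main forms in muscle, Akt2 being the one tied most closely to glucose uptake. Akt1 (ENSMUSG00000001729, chr12:112653821-112674884, minus strand) had 6552, 7226 and 7555 normalized counts (lowest, median, highest) in vehicle and 3775, 5674 and 7845 after BAM15. The spread of the BAM15 libraries (SD 1680 around a mean of 5778) was wider than that of the vehicle libraries (SD 453 around 7137), since BAM15 libraries 1 to 3 were at 3775 to 4732 and libraries 4 to 6 at 6616 to 7845. Over all libraries the log2 fold change of -0.30 ± 0.16 (SE; 95% interval -0.65 to 0.04) was not called (edgeR adjusted p = 0.125). Within numbers 1 to 3 it was -0.65 (edgeR adjusted p = 2.64e-07) and within numbers 4 to 6 it was -0.07 (edgeR adjusted p = 0.524). The vehicle libraries also differed by number, at 6552 to 6928 for 1 to 3 and 7525 to 7555 for 4 to 6. In a fit over all 12 libraries with a block for numbers 1 to 3 against 4 to 6, Akt1 was called lower (log2 fold change of -0.35 ± 0.0975 SE, edgeR adjusted p = 0.00655). The block averages the unlike changes of the sets, so this call does not show a decrease common to both.

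Akt2 (ENSMUSG00000004056, chr7:27591552-27640826, plus strand) had 2532, 2853 and 3132 normalized counts in vehicle and 1741, 2444 and 2644 after BAM15. All 6 BAM15 libraries were below the vehicle mean and 4 were below every vehicle library, and the log2 fold change of -0.29 ± 0.0941 (SE; 95% interval -0.49 to -0.09) was not called (edgeR adjusted p = 0.0159). DESeq2 called Akt2 lower (DESeq2 adjusted p = 0.00809). Without BAM15 library 1, the highest of its group, edgeR's adjusted p was 0.00926. Here the libraries that stood lower were those numbered 4 to 6, at 1741 to 2396, against 2492 to 2644 for numbers 1 to 3. The log2 fold change was -0.46 within numbers 4 to 6 (edgeR adjusted p = 0.00371) and -0.16 within numbers 1 to 3 (edgeR adjusted p = 0.0619). With the block for the 2 sets of numbers Akt2 was called lower (-0.30, edgeR adjusted p = 0.00437).

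Akt1 and Akt2 thus divided the BAM15 libraries the opposite way round. The Akt2 count relative to the Akt1 count of the same library was 0.3498 to 0.478 in vehicle, 0.5267 to 0.6772 in BAM15 libraries 1 to 3 and 0.239 to 0.3099 in BAM15 libraries 4 to 6. The values of the BAM15 libraries therefore lay on both sides of the vehicle range, with none inside it, and their mean of 0.443 ± 0.181 (SD, n = 6) describes no single library. The Pik3r1 count relative to Pik3ca was likewise higher in the first set than in the second, at 0.7802 to 0.8513 in BAM15 libraries 1 to 3 and 0.4339 to 0.6235 in BAM15 libraries 4 to 6, though the first set overlapped the vehicle libraries (0.7017 to 0.8055). The split of the BAM15 libraries was seen in the values and not in the labels, so the difference between the sets was not tested, and its cause was not tested.

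**Figure D3:**
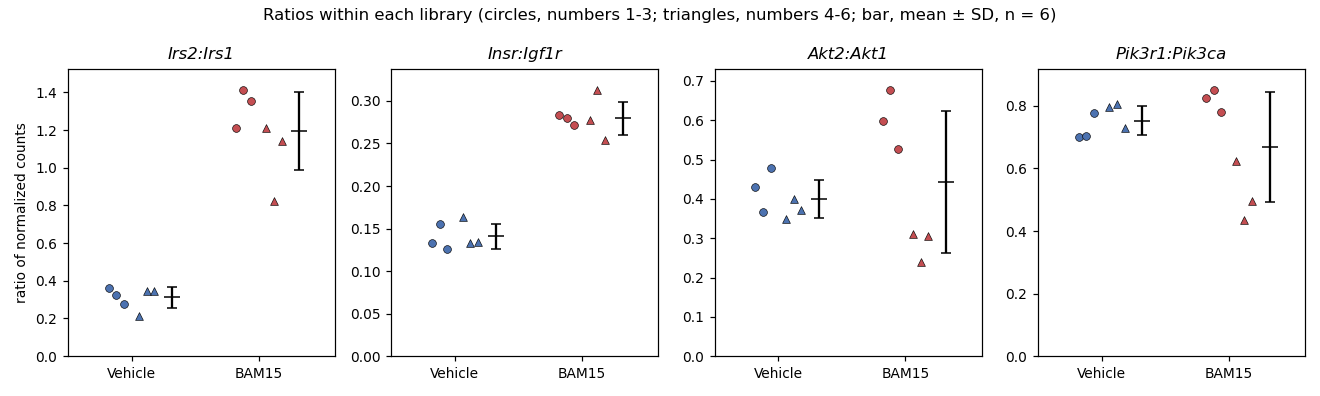
Ratio of the normalized counts of 2 members within each library (vertical axes, starting at 0), circles for library numbers 1 to 3 and triangles for 4 to 6, with the mean ± SD (n = 6). All BAM15 libraries are above vehicle for Irs2 to Irs1 and for Insr to Igf1r, while for Akt2 to Akt1 they lie at 0.5267 to 0.6772 and at 0.239 to 0.3099, on either side of the vehicle libraries.

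Around the 10 members, 62 other genes of the pathway were grouped by role in 9 lists, and 55 of them were listed and tested. Of these, 5 were called higher (9.09%, against 22% of all genes tested) and 12 lower (21.8%, against 20.3%), 38 were not called, and the median log2 fold change was -0.07. Past all 3 thresholds were 4 of the 55 (7.27%), namely Trib3, Igf1, Enpp1 and Pik3ip1. All adjusted p-values in the following paragraphs are edgeR's with Benjamini-Hochberg adjustment over the 12730 genes, and values are means ± SD of 6 libraries.

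Of the ligands, Igf1 (insulin-like growth factor 1) was at 153.3 ± 5.46 in vehicle and fell to 12.4 ± 3.06 after BAM15 (log2 fold change of -3.61, adjusted p = 1.37e-11). Igf2, the growth factor that differentiating myoblasts secrete, rose from 4682 ± 242 to 6355 ± 558, with a log2 fold change of 0.44 (adjusted p = 3.08e-05). Counts on the insulin gene Ins2 fell from 102.3 ± 16.4 to 53.6 ± 9.01 (adjusted p = 5.33e-05). In GENCODE M21 the Ins2 gene model has 5 distinct 3′ ends and spans chr7:142678656-142743381, and 7 stretches of 50 bases at its end also occur in Ins1, so these reads are uncertain evidence of insulin mRNA. The 1 other receptor tested, Igf2r, was at 788.9 ± 150 in vehicle and 928.4 ± 103 after BAM15 (adjusted p = 0.111).

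Among 10 other substrates and adaptors, 1 rose (10%, against 22% of all genes tested) and 1 fell (10%, against 20.3%). Grb2, which links receptors and IRS proteins to the Ras pathway, fell from 1670 ± 82.2 to 1210 ± 196 (log2 fold change of -0.46, adjusted p = 0.000498). Sh2b1, an adaptor that enhances insulin receptor activity, rose from 1146 ± 111 to 1433 ± 151 (0.32, adjusted p = 0.00383), although its groups overlapped.

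The brakes on the receptor and on AKT held the largest change of the lists. Trib3, a pseudokinase that binds AKT and is induced in the integrated stress response, rose from 125.8 ± 19.1 to 6298 ± 617, a log2 fold change of 5.65 (adjusted p = 2.69e-14). In the same list of 8 genes 3 fell (37.5%, against 20.3% of all genes tested). Enpp1, a membrane protein that binds and inhibits the insulin receptor, went from 580.4 ± 41.0 to 187.2 ± 17.5 (log2 fold change of -1.63, adjusted p = 1.76e-10). Ptpn1, the tyrosine phosphatase that removes phosphate from the activated receptor, went from 1910 ± 75.6 to 1132 ± 39.7 (-0.76, adjusted p = 4.27e-09). The receptor-type phosphatase Ptprf went from 2462 ± 158 to 1728 ± 89.1 (-0.51, adjusted p = 2.05e-06). The other 4 (Grb14, Ptpn2, Socs1 and Socs3) were not called.

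Of the 3 other PI3K subunits tested, the catalytic subunit gene Pik3cb fell from 415.1 ± 22 to 330.8 ± 21.4 (log2 fold change of -0.33, adjusted p = 0.000571). The regulatory subunit gene Pik3r2 was at 1036 ± 56.7 in vehicle and 954.3 ± 97.1 after BAM15 (adjusted p = 0.171), and the catalytic subunit gene Pik3cd at 76.0 ± 9.59 and 72.7 ± 15.0 (adjusted p = 0.719). Among the 6 phosphoinositide brakes, Pik3ip1, a transmembrane protein that inhibits the PI3K catalytic subunit, rose from 281.2 ± 16.8 to 563.5 ± 23.7 (log2 fold change of 1.00, adjusted p = 3.06e-09). Inpp4b, a phosphatase that degrades a phosphoinositide downstream of PI3K, fell from 448.7 ± 53.3 to 225.0 ± 35.3 (-0.996, adjusted p = 2.02e-06).

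Among 8 genes of PDK1 and of the mTORC2 complex, the kinases that phosphorylate AKT, 2 fell (25%, against 20.3% of all genes tested). Deptor, an inhibitory partner of mTOR, fell from 10140 ± 557 to 6155 ± 738 (log2 fold change of -0.72, adjusted p = 1.14e-06). Prr5l, which binds mTORC2, fell from 38.2 ± 8.49 to 22.6 ± 4.05 (-0.76, adjusted p = 0.00326). The 5 other genes of AKT kinases and phosphatases had adjusted p-values of 0.0764 or above. Among 11 AKT substrates 1 rose (9.09%, against 22% of all genes tested) and 2 fell (18.2%, against 20.3%). Foxo3 rose from 738.2 ± 94.4 to 1023 ± 88.6 (log2 fold change of 0.47, adjusted p = 0.000351) and Foxo1, which encodes a transcription factor of the same family, fell from 1124 ± 58.1 to 867.8 ± 39.4 (-0.37, adjusted p = 3.09e-05). Tbc1d1, a Rab GTPase-activating protein that holds GLUT4 vesicles back until it is phosphorylated, fell from 2437 ± 166 to 1508 ± 175 (-0.69, adjusted p = 2.07e-06).

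**Figure D4:**
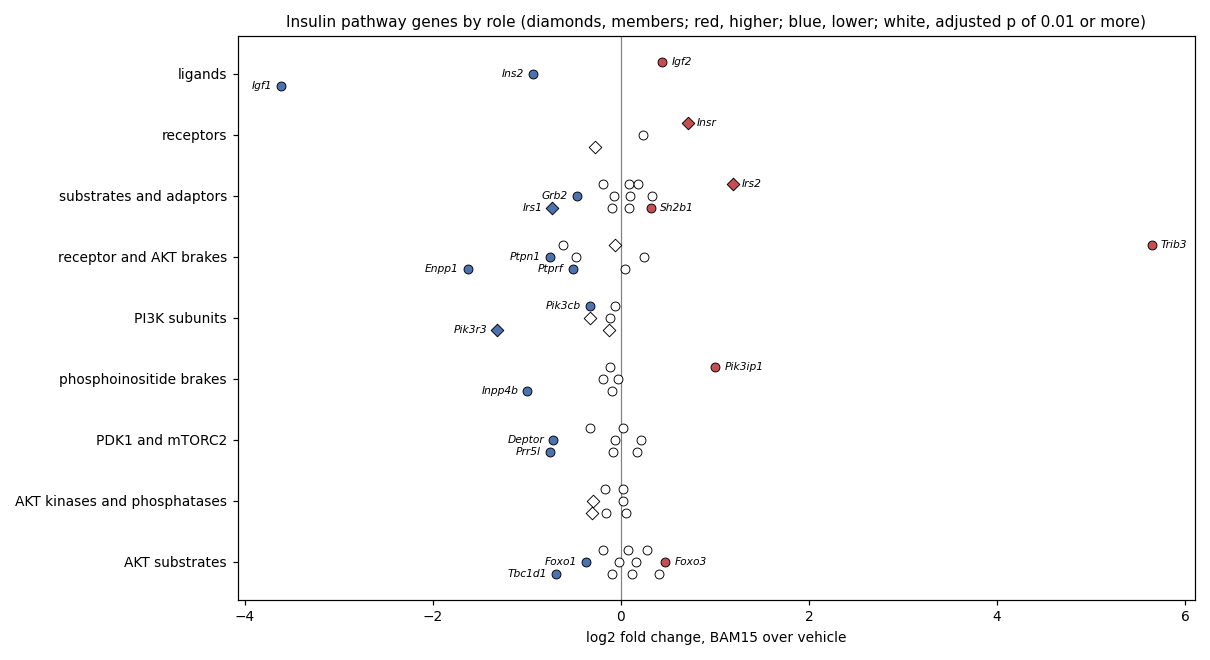
Log2 fold change, BAM15 over vehicle (horizontal axis), of every tested gene in the 9 role lists (rows), with diamonds for the 10 members and circles for other genes, filled red where called higher, blue where called lower and white where edgeR's adjusted p was 0.01 or more. Insr (0.71) and Irs2 (1.19) are the red diamonds, Irs1 (-0.73) and Pik3r3 (-1.32) the blue ones, and Trib3 (5.65) stands far to the right of all others.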

How the data were processed

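RNA of C2C12 myotubes given 20 µM BAM15 or vehicle for 16 h was measured in 6 libraries per condition, grouped by their labels. The authors prepared QuantSeq 3′ libraries, aligned them with BlueBee software and deposited whole-number read counts per Ensembl gene without normalization. The submitters' processing notes name DESeq2 1.22.2 and the build GRCm38 (mm10). The aligner, the annotation and the strand used in counting are not given in the sources used here. The methods and the labels differ in read length and cell passage. The authors also deposited a normalized signal, in which each library's counts are divided by a single factor, and which served for 1 alternative. A further 11 columns of each table belong to no sample of this series and were not used. Symbols for 2293 identifiers were taken from the GENCODE M21 annotation.

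Counts were analysed in R 4.3.3 with edgeR 4.0.16: filterByExpr removed 2383 genes, TMM factors scaled the libraries, and a robust quasi-likelihood model with condition as its only term was fitted. The p-values were adjusted by the Benjamini-Hochberg method over the 12730 tested genes. The standard error is the size of the log2 fold change divided by the square root of F, and 95% intervals use the t distribution with the moderated degrees of freedom. The members, the pathway and marker lists and the promoter motifs were chosen with earlier results of these data known, so a count over a list is a description. Named genes are the 10 members, up to 2 other genes of each list with the largest change at an adjusted p below 0.01, and any gene counted in a group of 5 or fewer. Pik3r2, Pik3cd and Igf2r, which the threshold did not call, were named for their role after their values were seen. Some genes of the lists are not reported here by name.

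Alternatives were DESeq2 1.42.0, limma-voom (limma 3.58.1), 3 other scalings, other filters, blocks for library number and for numbers 1 to 3 against 4 to 6, each of these sets alone, no robust moderation, limma on log2 of the deposited signal plus 1, an adjusted p below 0.05, and each library left out in turn. The tests were checked on simulated counts drawn independently for each library. The simulation held no split between numbers 1 to 3 and 4 to 6, so the check does not cover that split. Promoters are RefSeq's, and protein sequences were not analysed here. Plots were made with matplotlib 3.10.9 (Python 3.11.15).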

Additional observations from a re-analysis of the deposited data

Results flagged for a closer look

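The Insr value of BAM15 library 6 stood apart from its group: at 339.7 normalized counts it was below the other 5 BAM15 libraries, which lay between 379.8 and 400.5, with a gap of 0.66 of the whole range, above Dixon's critical value for 6 libraries. It was still above every vehicle library. Of the 20 groups examined (10 members in 2 conditions) this was the 1 so marked, and chance marks about 1 group in 20.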

How the results depend on the processing

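Each member was recomputed under 25 alternatives (24 for Grb10, which had too few reads for a minimum of 10 counts in every library). Irs1, Irs2 and Pik3r3 kept their direction and their call in all 25, and Insr in 24, the exception being library numbers 4 to 6 alone, which left 1 member called higher. Of the member values under all alternatives, 222 kept direction and side of the threshold, 22 passed it in addition, 1 lost it and 4 reversed. The count of members called lower, 2 as reported, was 4 with DESeq2 (Pik3r1 and Akt2 in addition). With median-ratio or upper-quartile scaling it was 3 (Pik3r1 in addition). It was 5 with scaling by library size only (Igf1r, Pik3r1 and Akt2 in addition). It was also 5 with a block for numbers 1 to 3 against 4 to 6 (Pik3r1, Akt1 and Akt2 in addition). It was 4 within numbers 1 to 3 and 4 within numbers 4 to 6. On the deposited normalized values it was 5, as it was at an adjusted p below 0.05 (Igf1r, Pik3r1 and Akt2 in addition in both). With each library left out in turn it was 2 to 4, the 4 without BAM15 library 1. The added genes differed: Akt1 and Pik3ca passed within numbers 1 to 3, Akt2 and Pik3r1 within numbers 4 to 6. Pathway genes called higher, 5 as reported, were 8 within numbers 1 to 3 and 9 at an adjusted p below 0.05. The share of all tested genes called under each alternative is not given here, so these counts cannot be set against a background. The cause of these shifts was not tested. The sign of Grb10, never called, reversed within numbers 4 to 6 (0.034) and when BAM15 library 1 (0.04) or vehicle library 4 (0.17) was left out, with values from -0.22 to 0.17 over the libraries left out, and that of Pik3ca reversed within numbers 4 to 6 (0.015).

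The values do not settle whether the library numbers pair the samples. The correlation of same-numbered deviations ranged from -0.0756 to 0.311 and was above 0.1 in 4 of 6 numbers. Only 2 of 6 numbers correlated best with themselves, though each number's best match lay in its own set, 1 to 3 or 4 to 6. With the replicate block 3 members were called lower, Pik3r1 in addition (edgeR adjusted p = 0.00856), 2 stayed higher, and pathway genes numbered 6 higher and 12 lower. Depth limited Grb10, with 6 to 19 reads per library.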
